A study of Mus musculus with 6 samples.

Results

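The genes described here are 30 factors that form or bind the 3' ends of RNA, other than the cleavage stimulation complex CstF. They comprise the cleavage and polyadenylation specificity factor (CPSF), cleavage factors I and II, poly(A) polymerases, poly(A)-binding proteins, factors of histone mRNA processing and of the Integrator complex, and enzymes of transcription termination. They were chosen by name from the table of read counts. All 30 were found among the 49315 mouse genes counted, each as 1 row, and all 30 were kept by the filter on low counts, which left 13704 genes. The cells were immortalized mouse keratinocytes (MK cells), an epithelial line from skin, grown without treatment on collagen at 33 °C. Control stands for the line MK-546, in which the α3 integrin subunit is absent. The 3A group was MK-546-ha3A, made from the same α3-null cells by putting back human α3. Both groups therefore lack mouse α3, and each is a single line, so the α3 transgene and the history of the line cannot be told apart. Each group had 3 libraries, named Control 1 to 3 and 3A 1 to 3. The sources used here do not state whether these came from separate cultures. The p-values therefore set the group difference only against the spread of these samples, and that spread may be technical.

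Most messenger RNAs are cut downstream of a poly(A) signal and given a poly(A) tail. CPSF reads the signal and makes the cut, CstF binds downstream of it, cleavage factor I binds upstream sequences and influences which site is used, and cleavage factor II joins the complex through the polymerase. Replication-dependent histone mRNAs end in a stem-loop instead of a tail and use the U7 particle and the stem-loop binding protein. Small nuclear RNAs are cut by Integrator, whose nuclease is a relative of the CPSF nuclease. After the cut, an exonuclease degrades the remaining RNA and the polymerase is released. The study's title links α3β1, a receptor for laminins, with the CstF subunit Cstf3 and the choice of polyadenylation site. The comparison of 3A with Control therefore asks whether the mRNAs of the rest of this machinery differ with α3.

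Total counts ranged from 25634204 to 36245240 per library. Counts of Itga3, the α3 gene, were 1007, 1220 and 1062 in Control 1 to 3, and in 3A 1 to 3 they were 2807, 2633 and 2064. A count over the whole gene shows neither the deletion nor the transgene. All 7 keratinocyte markers were detected, with a summed level of 9851 to 10962 CPM (counts scaled to a common library size) in Control and 7237 to 8885 in 3A. The summed levels in Control and 3A were 2.12 to 3.20 and 2.05 to 3.37 CPM for 6 fibroblast markers, 3.25 to 3.74 and 1.58 to 2.13 CPM for 5 melanocyte markers and 0.412 to 0.467 and 0.418 to 0.946 CPM for 4 endothelial markers. Lum, Tyr and Dct were at 0 in every library. The 5 immune markers summed to 13.9 to 22.9 and 11.2 to 14.6 CPM, most of it from Cd68, with Ptprc, Lyz2 and Cd3e at or near 0. Control 1 stood apart from the other Control libraries, and 3A 1, to a lesser degree, from the other 3A libraries. Mitochondrial protein-coding transcripts took 1.16% of the counts in Control 1 and 4.16% and 4.69% of those in Control 2 and 3. In 3A they took between 1.23% and 1.58%. For each factor whose call changed without Control 1, both values are given.

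Of the 30 factors, 1 rose in 3A and 0 fell at an adjusted p under 0.05 (edgeR quasi-likelihood test, Benjamini-Hochberg adjustment over all 13704 tested genes). Over all tested genes, 7.52% were called higher and 7.39% lower, 14.9% in all, so the factors' share of 3.33% lay below the background. The factor that rose was Clp1, a subunit of cleavage factor II. Before adjustment, 4 factors were higher and 2 lower at p under 0.05 (20.0% of the 30), against 15.8% and 18.1% of all tested genes, 34.0% together. DESeq2 called 4 higher (Clp1, Cpsf2, Papola and Xrn2) and 0 lower, against 12.3% and 13.8%. The groups did not overlap for 6 factors (20.0%), 3 with 3A on top (Cpsf2, Clp1 and Papola) and 3 with Control on top (Sympk, Pabpc1 and Zfp473). Over all tested genes 18.6% and 17.6% did so, 36.1% together. The median log2 fold change over the 30 factors was -0.02, equal to that of all tested genes at 2 decimals, and the single values ran from -0.83 (Pabpn1) to 0.99 (Xrn2). In bulk samples, fewer cells of a kind and less RNA per cell cannot be told apart.

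**Figure D1:**
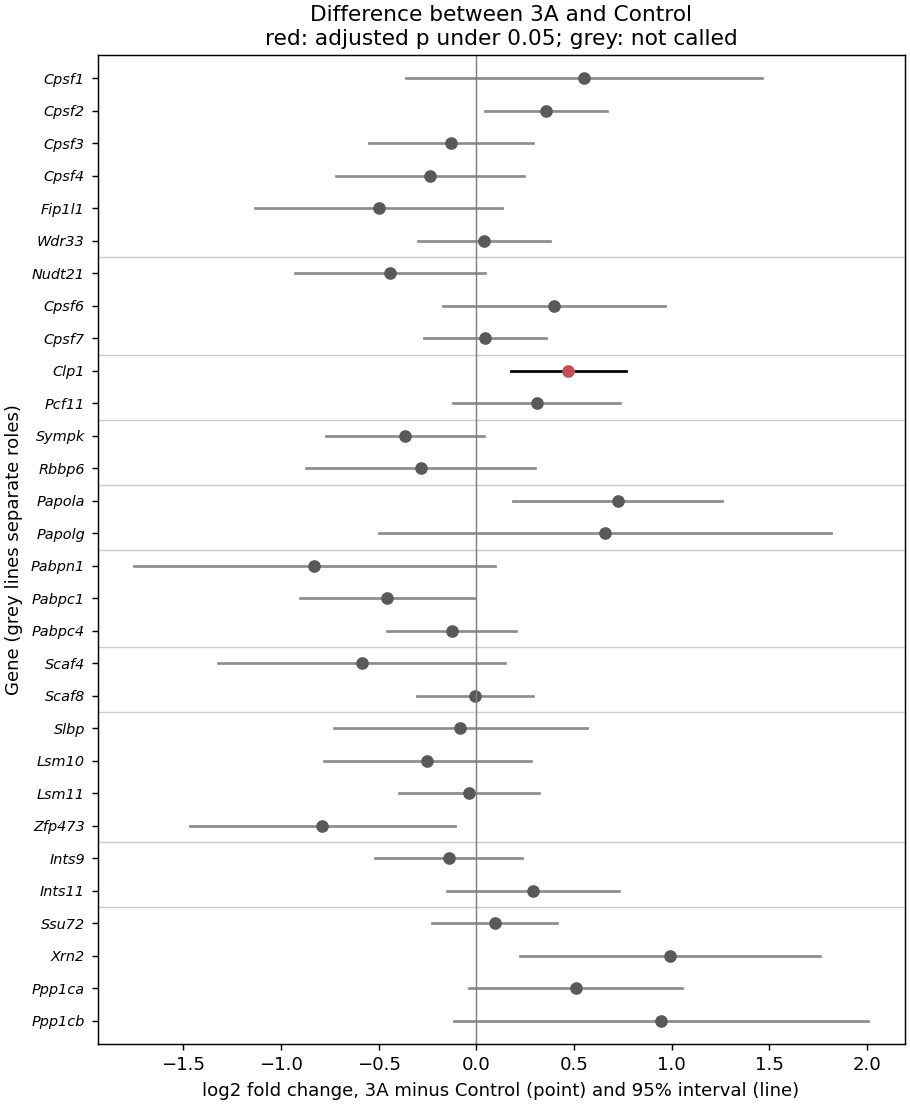
Log2 fold change of 3A against Control for the 30 factors, with the point as the estimate, the line as its 95% confidence interval, and grey lines between roles. Only Clp1 (red, 0.47) was called, and the widest intervals belong to Papolg and Ppp1cb.

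The count of called factors depended on Control 1. Without it, 10 factors were higher and 6 lower by edgeR, which is 53.3% of the 30, against 26.2% and 25.8% of all genes tested in that fit, 52.0% together. Without any 1 of the other 5 libraries, 0 were higher and 0 lower. In 23 of the 30 factors the library closest in level to Control 1 was one of 3A and not another Control library. Control 1 lay inside the range of the 3 libraries of 3A in 15 factors. The same held for 66.1% and 31.5% of all tested genes, so this position of Control 1 was not a feature of these factors alone. For 3A 1, the closest library was one of Control in 19 of the 30 factors and in 52.5% of all tested genes. The median absolute difference between Control 1 and the mean of Control 2 and 3 was 0.48 on the log2 scale over the factors, as large as that between 3A and the same mean (0.48), while Control 2 and 3 differed from each other by 0.14. The low mitochondrial mRNA share of Control 1 moved with its position, and its part in these counts was not tested. With that share as a covariate, 2 factors were called higher (Clp1 and Slbp) and 1 lower (Sympk). The share was high only in Control 2 and 3, so this covariate nearly separates them from Control 1 and the 3A libraries. Group differences under it therefore rest mainly on Control 1, here and below.

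**Figure D2:**
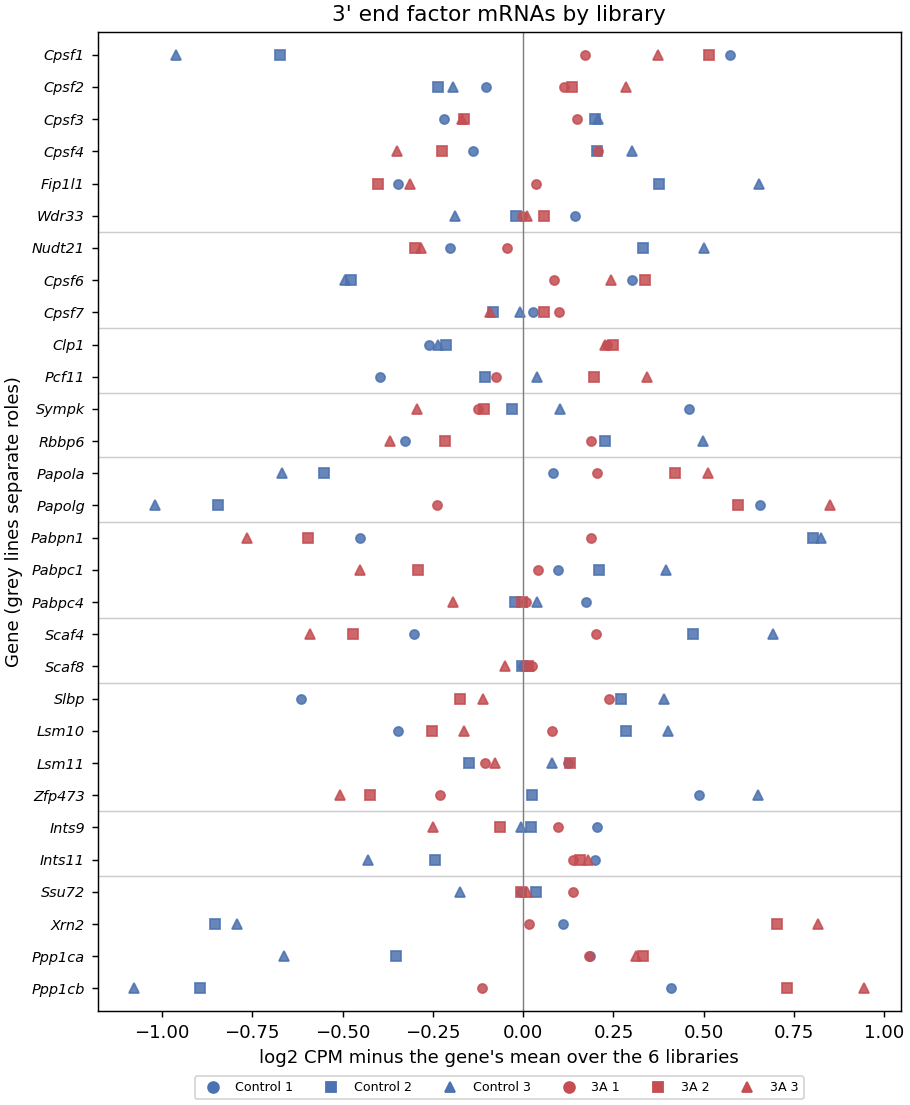
Log2 CPM of each factor in each library, minus the gene's mean over the 6 libraries, with Control in blue and 3A in red. In 23 of 30 factors the point closest to Control 1 (blue circle) is red, and in Clp1 the 2 colours form separate groups of 3.

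Clp1 encodes an RNA kinase that works in cleavage factor II and in transfer RNA splicing. It is encoded on chromosome 2, minus strand, between 84722104 and 84727350 (GRCm38, which is mm10). Its level was 44.5, 46.0 and 45.3 CPM in Control 1 to 3, and 62.6, 63.3 and 62.3 CPM in 3A 1 to 3. The groups did not overlap, and Control 1 lay with the other Control libraries. The fold change was 1.39 (95% confidence interval 1.13 to 1.70), which is 0.47 on the log2 scale with an SE of 0.13 (adjusted p = 0.0475 in edgeR). The spread between replicates was a coefficient of variation of 1.65% in Control and 0.87% in 3A, smaller than the 2.80% and 2.10% that counting error alone gives at these counts. Its log2 fold change stayed between 0.46 and 0.54 in the 16 alternative fits, but the call was close to the threshold. Without Control 1 the edgeR adjusted p was 0.0147, and without any other library it was between 0.0861 and 0.207. Clp1 transcripts share a stretch of 150 to 155 bases, 95.3% to 95.5% identical, with transcripts of the more or similarly counted genes Bclaf1, Mga and Npepps, and reads from it could be divided among them. Pcf11, the large subunit of cleavage factor II that binds the polymerase tail, had levels of 19.5, 23.9 and 26.4 CPM in the Control libraries and 24.4, 29.4 and 32.5 in the 3A libraries. Its ranges overlapped (log2 fold change 0.31, 95% confidence interval -0.12 to 0.74, edgeR adjusted p = 0.265).

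The 250 bases upstream of the start sites of Clp1, the called factor, and of Papola, the factor with the next smallest edgeR p, are shown 5′ to 3′ on the strand of the gene, from RefSeq (GRCm38.p6). The RefSeq start of Clp1 lies inside the span given above, so part of its window is annotated as transcribed. The Clp1 window is chr2:84727288-84727537 on the minus strand and the Papola window is chr12:105784447-105784696 on the plus strand. Capitals mark matches to GGGCGG or CTACANNTC on either strand.
Clp1: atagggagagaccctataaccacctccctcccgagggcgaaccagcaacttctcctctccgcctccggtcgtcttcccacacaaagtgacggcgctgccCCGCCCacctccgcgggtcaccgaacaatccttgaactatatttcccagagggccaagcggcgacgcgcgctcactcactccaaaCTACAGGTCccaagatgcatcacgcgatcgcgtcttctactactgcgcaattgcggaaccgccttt
Papola: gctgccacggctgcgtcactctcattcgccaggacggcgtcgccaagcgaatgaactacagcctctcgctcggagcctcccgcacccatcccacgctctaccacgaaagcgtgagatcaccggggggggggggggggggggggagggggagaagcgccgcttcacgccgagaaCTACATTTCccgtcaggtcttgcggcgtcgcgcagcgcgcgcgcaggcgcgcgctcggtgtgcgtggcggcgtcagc

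A window was found for 25 of the 30 factors. Of these, 8 held CCAAT, 13 GGGCGG, 1 TATAAA, 3 CCGGAAG and 1 TGACGTCA on either strand, which is 32%, 52%, 4%, 12% and 4%. Among all 27025 genes with a window the shares were 34.5%, 32.9%, 13.0%, 7.05% and 1.62%. The factors' windows had a median of 23 CpG, against 6 over all genes. Among all windows with an observed to expected CpG ratio of at least 0.6, the shares in the same order were 34.8%, 67.5%, 5.39%, 14.9% and 3.39%. The share of GGGCGG there was larger than in the factors. For the last 3 sequences, the factors' shares of 4%, 12% and 4% lay near these values and rest on 1, 3 and 1 windows. CTACANNTC, searched for after the Clp1 and Papola windows had been read, is part of the longer element bound by the zinc finger factor Zfp143. It was present in 6 of the 25 windows (24%), those of Nudt21, Clp1, Sympk, Papola, Lsm10 and Xrn2, against 3.94% of all windows and 5% of those with that CpG ratio. Since the motif was taken from the Clp1 and Papola windows, their matches were given in advance, and without them it was in 4 of 23 (17.4%). This is a description, with no test. It began 66 bases before the start site in Clp1 and 77 bases before it in Papola. The levels of these 6 genes did not move one way, with log2 fold changes of 0.47, 0.72 and 0.99 for Clp1, Papola and Xrn2 and of -0.44, -0.37 and -0.25 for Nudt21, Sympk and Lsm10. A match in the letters does not show that a factor binds there.

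The mRNAs of the CPSF subunits were not called in either direction with all 6 libraries. Cpsf1, Wdr33, Cpsf4 and Fip1l1 encode the part of CPSF that recognises the poly(A) signal and recruits the polymerase that adds the tail. Cpsf1 (chromosome 15, 76595803 to 76607591) had 105.5 CPM in Control 1, 44.5 in Control 2 and 36.5 in Control 3, beside 79.9, 101 and 92.0 CPM in 3A 1 to 3. Control 1 was the highest of the 6 libraries and Control 2 and 3 were the lowest. The log2 fold change came to 0.55 (edgeR adjusted p = 0.341) with all libraries and 1.18, with an SE of 0.16 (edgeR adjusted p = 0.00141), without Control 1. Wdr33, which contacts the signal directly, had between 62.1 and 78.1 CPM in the Control libraries and between 70.6 and 73.6 in the 3A libraries (log2 fold change 0.04, 95% confidence interval -0.30 to 0.38). Cpsf4, a zinc finger subunit that also contacts the signal, had a log2 fold change of -0.24 (edgeR adjusted p = 0.432). Fip1l1, which holds the poly(A) polymerase, had levels of 158, 262 and 317 CPM in the Control libraries and 206, 152 and 162 in the 3A libraries. Control 1 lay among the 3A libraries, and the log2 fold change of -0.50 (edgeR adjusted p = 0.226) became -0.73 without it (edgeR adjusted p = 0.00882).

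The cutting part of CPSF consists of the nuclease Cpsf3, its catalytically inactive relative Cpsf2 and the scaffold symplekin (Sympk). Cpsf2 had levels of 129, 118 and 121 CPM in the Control libraries and 150, 152 and 169 in the 3A libraries, so the groups did not overlap. The fold change was 1.28 (95% confidence interval 1.03 to 1.59, edgeR adjusted p = 0.111), and it was called by DESeq2 (adjusted p = 0.0339) and by edgeR without Control 1 (log2 fold change 0.41, adjusted p = 0.0285). Cpsf3 had levels of 75.4, 101 and 101 CPM in the Control libraries and 97.5, 78.4 and 78.1 in the 3A libraries, with overlapping ranges (log2 fold change -0.13, edgeR adjusted p = 0.627). Sympk had levels of 135, 96.1 and 105 CPM in the Control libraries and 90.1, 91.0 and 80.1 in the 3A libraries, with every 3A library below every Control library. Its log2 fold change of -0.37 did not pass (edgeR adjusted p = 0.178), but did under a covariate for the mitochondrial mRNA share (-0.58, edgeR adjusted p = 0.0275). Sympk transcripts match those of many other genes at 95% identity or more, so reads could be divided among them. An example is St13, over 173 bases, with 64915 counts over all libraries against 18982 for Sympk. Rbbp6, a RING finger protein that activates the nuclease, had levels of 55.6, 81.6 and 98.5 CPM in the Control libraries and 79.4, 60.0 and 54.0 in the 3A libraries (log2 fold change -0.29, edgeR adjusted p = 0.438).

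**Figure D3:**
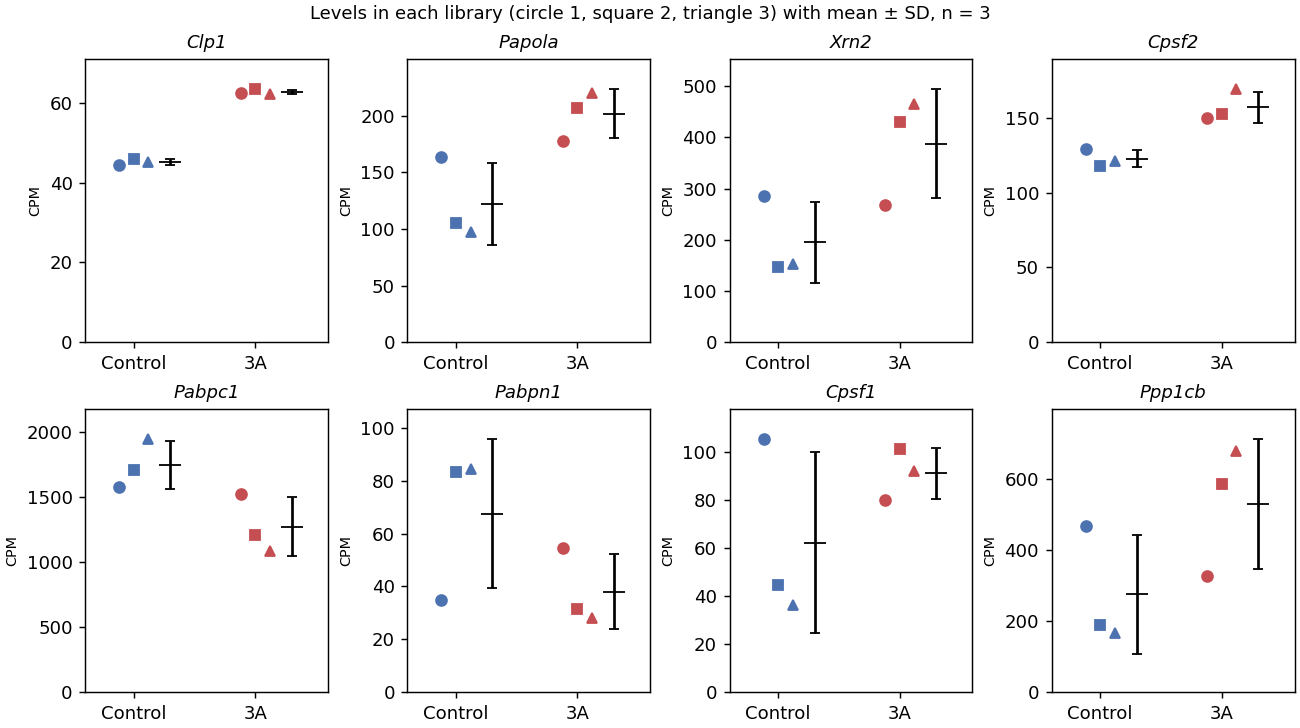
CPM of 8 factors in each library, with mean ± SD for n = 3 and the vertical axis from 0. The groups are separate for Clp1, Papola, Cpsf2 and Pabpc1, while Control 1 (blue circle) lies within or next to the 3A values for Xrn2, Pabpn1, Cpsf1 and Ppp1cb.

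Cleavage factor I is built from the small subunit Nudt21 and either of the larger subunits Cpsf6 and Cpsf7, and its level is known to affect whether upstream or downstream poly(A) sites are used. Nudt21 had levels of 75.3, 109 and 123 CPM in the Control libraries and 84.0, 70.4 and 71.2 in the 3A libraries (log2 fold change -0.44, 95% confidence interval -0.93 to 0.05, edgeR adjusted p = 0.178). Cpsf6 had levels of 89.2, 52.0 and 51.4 CPM in the Control libraries and 76.8, 91.4 and 85.7 in the 3A libraries (log2 fold change 0.40, edgeR adjusted p = 0.276). In both genes Control 1 lay within the 3A range. Without Control 1 the log2 fold changes were -0.61 for Nudt21 and 0.72 for Cpsf6 (edgeR adjusted p = 0.00841 and 0.00421). Under a covariate for the mitochondrial mRNA share they were -0.027 and -0.027. Cpsf7 was among the steadiest factors, with 89.4 to 96.7 CPM in the Control libraries and 89.0 to 102 in the 3A libraries (log2 fold change 0.05, 95% confidence interval -0.27 to 0.36). Counts on Nudt21 may be shared in part with Gm7488, a gene whose transcript matched it over 684 identical bases and had 339 counts over all libraries, against 16582 for Nudt21.

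The poly(A) polymerases had higher mean levels in 3A without passing the test with all 6 libraries. Papola, the canonical nuclear polymerase (chromosome 12, 105784694 to 105838944), had levels of 163, 105 and 97.3 CPM in the Control libraries and 178, 207 and 220 in the 3A libraries. Every 3A library lay above every Control library, with Control 1 the highest of Control. The fold change was 1.65 (95% confidence interval 1.14 to 2.39, edgeR adjusted p = 0.0738). It was called by DESeq2 (adjusted p = 0.0221) and, at a log2 fold change of 1.00, by edgeR without Control 1 (adjusted p = 0.00160). Under the covariate for the mitochondrial mRNA share it was 0.34 (edgeR adjusted p = 0.142). Papolg, a related nuclear polymerase, had levels of 18.9, 6.66 and 5.90 CPM in the Control libraries and 10.1, 18.1 and 21.6 in the 3A libraries, so that Control 1 lay within the 3A range and 3A 1 was the lowest of 3A (log2 fold change 0.66, 95% confidence interval -0.50 to 1.82, edgeR adjusted p = 0.366). Without Control 1 Papolg was called at 1.41 (edgeR adjusted p = 0.00740), and under the covariate for the mitochondrial mRNA share it was -0.13. Per kb of merged exons, Papola was 10.9 times Papolg in Control and 10.6 times in 3A (geometric means).

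All 3 poly(A)-binding protein genes had negative log2 fold changes, and none passed the test with all 6 libraries. Pabpc1, the main cytoplasmic poly(A)-binding protein (chromosome 15, 36595661 to 36609668), was the most abundant factor in CPM. It had levels of 1583, 1713 and 1949 CPM in the Control libraries and 1525, 1210 and 1083 in the 3A libraries. The groups did not overlap, but 3A 1 lay just under Control 1. The log2 fold change came to -0.46 (95% confidence interval -0.90 to -0.01, edgeR adjusted p = 0.139). Without Control 1 it was called at -0.51 (edgeR adjusted p = 0.0321), and under the covariate for the mitochondrial mRNA share it was -0.30 (edgeR adjusted p = 0.274). Pabpc4, a cytoplasmic relative, had 220 to 252 CPM in the Control libraries and 195 to 224 in the 3A libraries (log2 fold change -0.13, edgeR adjusted p = 0.543). Pabpn1, the nuclear protein that stimulates tail synthesis (chromosome 14, 54892500 to 54898169), had levels of 35.0, 83.3 and 84.6 CPM in the Control libraries and 54.4, 31.6 and 28.2 in the 3A libraries. Control 2 and 3 were the highest libraries and Control 1 lay among those of 3A. The log2 fold change came to -0.83 (edgeR adjusted p = 0.182) with all libraries, -1.13 without Control 1 (edgeR adjusted p = 0.00882) and 0.05 under a covariate for the mitochondrial mRNA share. Pabpc1 and Pabpc4 have annotated copies that could share reads, the most counted being Gm16580 for Pabpc1 (577 counts over all libraries, against 283457) and Gm10110 for Pabpc4 (474 against 42916). Pabpn1 overlaps Gm20521 on the same strand over 651 exonic bases (101 counts, against 9628).

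Scaf4 and Scaf8 encode related proteins that bind the polymerase tail and prevent early polyadenylation. Scaf8 had levels of 61.4, 61.3 and 62.2 CPM in the Control libraries and 62.6, 62.0 and 59.4 in the 3A libraries. Its coefficient of variation was 0.791% in Control, smaller than the counting error of 2.40%, and 2.73% in 3A, where counting error gives 2.12%. The log2 fold change came to -0.0070 (95% confidence interval -0.30 to 0.29). Scaf4 had levels of 58.7, 100 and 117 CPM in the Control libraries and 83.3, 52.2 and 48.1 in the 3A libraries, with Control 1 inside the 3A range (log2 fold change -0.59, edgeR adjusted p = 0.222; -0.82 and adjusted p = 0.0203 without Control 1).

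None of the histone 3' end factors passed the test with all 6 libraries. All 4 had negative log2 fold changes there, but only that of Zfp473 kept its sign in every alternative fit. Slbp, the stem-loop binding protein, had levels of 38.7, 71.7 and 77.7 CPM in the Control libraries and 70.0, 52.6 and 55.0 in the 3A libraries. Control 1 was the lowest of the 6 libraries and Control 2 and 3 the highest. The log2 fold change came to -0.08 (95% confidence interval -0.73 to 0.57, edgeR adjusted p = 0.850) and turned to 0.56 under a covariate for the mitochondrial mRNA share (edgeR adjusted p = 0.0483). Slbp transcripts also match those of many other genes at 95% identity or more. An example is Ube2k, over 192 bases, with 49215 counts over all libraries against 11542 for Slbp. Lsm10 and Lsm11, the 2 Sm-like proteins particular to the U7 particle, had log2 fold changes of -0.25 and -0.04 (edgeR adjusted p = 0.449 and 0.884). Without Control 1, Lsm10 was called at -0.44 (edgeR adjusted p = 0.0412), and under the covariate for the mitochondrial mRNA share it was 0.21. Zfp473, a zinc finger protein of the same pathway, was the least abundant factor, with 49, 33 and 41 counts in Control and 33, 31 and 28 in 3A, or 1.55, 1.13 and 1.74 against 0.946, 0.826 and 0.780 CPM. The 3A libraries lay below those of Control (log2 fold change -0.79, SE 0.29, edgeR adjusted p = 0.107). An exonic overlap of 205 bases with Vrk3 on the other strand, a gene with 5640 counts over all libraries, leaves the few reads of Zfp473 uncertain.

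Of the Integrator nuclease pair, Ints11 had levels of 94.0, 69.1 and 60.8 CPM in the Control libraries and 90.1, 91.4 and 92.7 in the 3A libraries. The 3A libraries lay close together, and Control 1 was above them (log2 fold change 0.29, edgeR adjusted p = 0.299; 0.50 and adjusted p = 0.0133 without Control 1). Ints11 shares 697 exonic bases with Pusl1 on the other strand, which had 4113 counts over all libraries, against 16323. Its inactive partner Ints9 had 16.7 to 19.4 CPM in the Control libraries and 14.1 to 18.0 in the 3A libraries (log2 fold change -0.14, edgeR adjusted p = 0.547).

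Among the termination enzymes, Xrn2 had the highest point estimate of the 30 factors. Xrn2 is the nuclear exonuclease that degrades the RNA left after the cut (chromosome 2, 147012996 to 147078000). It had levels of 285, 146 and 153 CPM in the Control libraries and 268, 430 and 465 in the 3A libraries. Control 1 and 3A 1 lay between the other 2 Control libraries and the other 2 of 3A, and they crossed. The fold change was 1.99 (95% confidence interval 1.17 to 3.39, edgeR adjusted p = 0.0835), and without Control 1 it was 2.61 (edgeR adjusted p = 0.00285). Ppp1cb, a catalytic subunit of protein phosphatase 1 (chromosome 5, 32458843 to 32517433), had 468, 189 and 167 CPM in the Control libraries and 325, 585 and 678 in the 3A libraries. Control 1 and 3A 1 again lay between the other libraries of the groups and crossed. Its log2 fold change was 0.95 (95% confidence interval -0.11 to 2.01, edgeR adjusted p = 0.183), and 1.58 without Control 1 (edgeR adjusted p = 0.00381). Ppp1cb overlaps Gm43312 on the same strand over 1908 exonic bases (0 counts over all libraries, against 81848). Ppp1ca, another catalytic subunit, had levels of 754, 520 and 419 CPM in the Control libraries and 753, 835 and 824 in the 3A libraries, so that Control 1 and 3A 1 had nearly the same level (log2 fold change 0.51, edgeR adjusted p = 0.167). With Control 1 left out it was called at 0.79 (edgeR adjusted p = 0.00371). Under the covariate for the mitochondrial mRNA share the log2 fold changes were 0.48 for Xrn2, 0.22 for Ppp1cb and 0.12 for Ppp1ca (edgeR adjusted p = 0.232, 0.654 and 0.579). Protein phosphatase 1 has many functions outside RNA 3' ends. Ssu72, a phosphatase of the polymerase tail, had 114 to 132 CPM in the Control libraries and 128 to 142 in the 3A libraries (log2 fold change 0.09, 95% confidence interval -0.23 to 0.42).

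**Figure D4:**
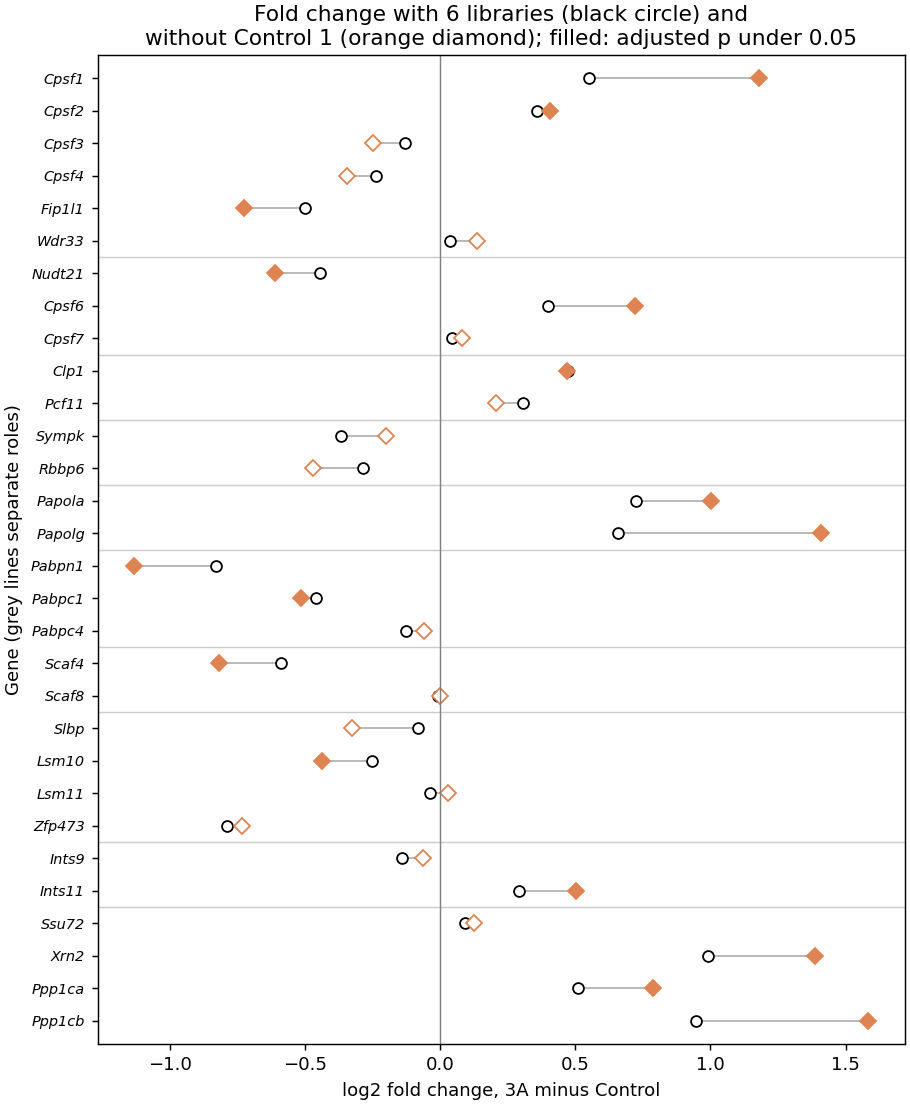
Log2 fold change of each factor with all 6 libraries (black circles) and without Control 1 (orange diamonds), filled where the edgeR adjusted p is under 0.05. With 6 libraries 1 factor is filled and without Control 1 16 are, and Clp1 has nearly the same value (0.47) in both.

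Compared per kb of merged exon length, the levels of the factors spanned a wide range in both groups. Pabpc1 (267 ± 28.4 CPM per kb in Control, mean ± SD, n = 3) and Ppp1ca (224 ± 68.2) were at the top in Control, and in 3A Ppp1ca (319 ± 17.6) stood above Pabpc1 (195 ± 34.7). Pabpc4 (57.9 ± 4.10), Xrn2 (48.9 ± 19.7) and Ssu72 (46.4 ± 3.50) came next in Control. The gap between Pabpc4 and Ssu72 was larger than their SDs added together, while the SD of Xrn2 spanned both means. The lowest were Pcf11 (2.97 ± 0.44), Ints9 (2.60 ± 0.21), Papolg (1.91 ± 1.32) and Zfp473 (0.147 ± 0.0313). Within the CPSF subunits the Control means ran from 5.87 for Wdr33 to 21.4 for Cpsf2. Long annotated exons that these cells may not use lower a value per kb.

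**Figure D5:**
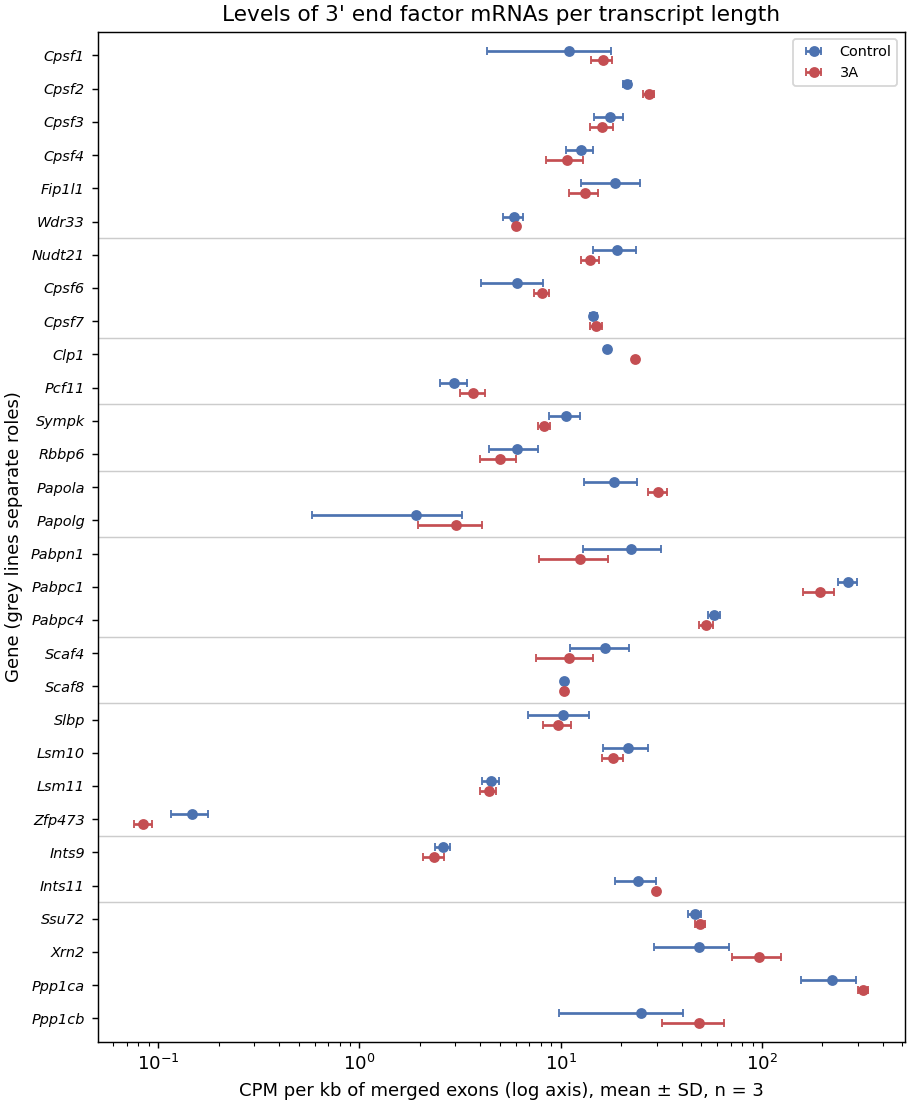
Level of each factor per kb of merged exons on a log axis, mean ± SD of 3 libraries, Control in blue and 3A in red. Pabpc1 and Ppp1ca are at the top and Zfp473 at the bottom in both groups.

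Levels of partner subunits and paralogs were also compared as ratios within a library, which do not depend on the scaling between libraries. With 3 libraries against 3, the smallest p of a two-sided exact permutation test is 0.1, so no ratio could pass a threshold of 0.05, and the 13 pairs computed are given as values (lowest adjusted p = 0.371). The ratio of Cpsf2 to Ints9, both inactive partners of a nuclease, was the only one without overlap. Its values were 7.91, 8.21 and 8.60 in the Control libraries and 9.92, 11.3 and 14.2 in the 3A libraries (exact permutation p = 0.1). The ratio of Cpsf6 to Nudt21 within cleavage factor I was 0.604, 0.243 and 0.213 in the Control libraries and 0.465, 0.661 and 0.612 in 3A. Control 1 again lay with 3A (exact permutation p = 0.2). The ratio of Cpsf1 to Cpsf4 had the same pattern, with 1.79, 0.596 and 0.456 in Control and 1.07, 1.83 and 1.81 in 3A (exact permutation p = 0.2). The ratio of Clp1 to Pcf11 overlapped, with 5.03 to 6.68 in Control and 5.61 to 7.51 in 3A.

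Other genes of these pathways were read from the same fit, in which 7.52% of all tested genes were called higher and 7.39% lower. Of the 4 CstF subunits, 2 rose and 0 fell. Cstf3 rose by 1.01 on the log2 scale, with means of 27.4 ± 9.66 CPM in Control and 55.3 ± 7.18 in 3A (SD, n = 3; edgeR adjusted p = 0.0420). Cstf2t, a paralog of the RNA-binding subunit, rose by 0.98, with means of 41.0 ± 15.1 and 80.8 ± 8.74 CPM (edgeR adjusted p = 0.0478). Neither was called when any 1 library other than Control 1 was left out, and without Control 1, 3 of the 4 were higher. The fold change of Clp1, 1.39, was smaller than the 2.02 of Cstf3. That difference was not tested.

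Of 14 other Integrator subunits and associated proteins, 1 rose and 2 fell. Nabp1 and Nabp2 encode alternative single-stranded nucleic acid binding partners of the subunit Ints3. Nabp1 rose, with 72.5, 47.8 and 39.4 CPM in the Control libraries and 115, 128 and 156 in the 3A libraries (log2 fold change 1.32, edgeR adjusted p = 0.0161). Nabp2 fell, with 114, 141 and 136 CPM in the Control libraries and 86.2, 62.4 and 60.5 in the 3A libraries (-0.90, edgeR adjusted p = 0.0221). Ints6 fell, with 32.8, 29.3 and 30.8 CPM in the Control libraries and 15.5, 16.1 and 18.9 in the 3A libraries (-0.88, edgeR adjusted p = 0.0103). In all 3 genes the groups did not overlap, and Control 1 lay on the Control side. Without 3A 2, 0 of the 14 were called in either direction. Without Control 1, 8 were higher and 3 lower. Without Control 2, Control 3, 3A 1 or 3A 3, the counts higher were 0, 1, 2 and 0 and the counts lower 1, 1, 2 and 1.

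Of 10 tested partners in histone mRNA ends and the cap-binding complex, 1 rose and 0 fell. This was Srrt, which links the cap-binding complex to histone mRNA processing, with 56.7, 51.1 and 52.7 CPM in the Control libraries and 83.7, 86.6 and 72.5 in the 3A libraries (log2 fold change 0.60, edgeR adjusted p = 0.0331). It was not called without any 1 library other than Control 1, and without Control 1, 5 of the 10 were higher. Of 22 termination and polymerase tail factors, 10 U1 particle proteins and 13 tested poly(A) tail factors, edgeR called 0 in either direction. Unadjusted p-values under 0.05 were found for 1 higher and 2 lower, 1 and 2, and 0 and 1, in this order (edgeR), beside 15.8% and 18.1% of all tested genes. Without Control 1, edgeR called 5 higher and 3 lower, 1 and 7, and 2 and 5, where 26.2% and 25.8% of all genes were called. DESeq2 called 1 and 0, 1 and 2, and 0 and 0. The median log2 fold changes were 0.86 for CstF, 0.19 for Integrator, 0.27 for the histone and cap partners and 0.02 for termination. They were -0.46 for the U1 particle and -0.27 for the poly(A) tail factors, beside -0.02 for all tested genes. The U1 list includes Sm proteins that other splicing particles share. Its proteins particular to U1, Snrnp70, Snrpa and Snrpc, had log2 fold changes of -0.12, -0.73 and -0.16.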

How the data were processed

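The authors deposited raw read counts per mouse Ensembl gene, whole numbers without normalization, for 6 libraries. Per the submitters' processing notes, reads passed through Trim Galore and featureCounts, with limma and edgeR also listed. The notes name mm10 beside hg38 and GRCh38 and give no versions or roles. Aligner, annotation release and strand setting: not given in the sources used here. How reads of overlapping genes or near-identical copies were assigned is therefore unknown. Symbols, positions and merged exon lengths came from GENCODE M21 (GRCm38), which matched 49056 of 49315 IDs. Counts were fitted on the whole table with edgeR 4.0.16 in R 4.3.3 (filterByExpr, TMM, glmQLFit, glmQLFTest, group as the only term) and p-values adjusted over 13704 genes at 0.05. CPM use TMM-scaled library sizes. The fit was tested on simulated counts for 3A against Control (13586 genes, of which 200 were changed), where 17% of 2-fold and 83% of 4-fold changes were recovered, and 5 of 105 calls were false. Near-identical transcripts were sought with BLAST 2.17.0 (at least 95% identity over 150 bases). The replicates of a group differed by more than sampling noise (chi-square per degree of freedom at least 10.3). Named genes were the 30 factors, Itga3, Cstf3 and up to 4 called genes of each fixed pathway list. Members and lists were chosen with earlier results of these data known. Alternatives were other scalings and filters, DESeq2 1.42.0, limma-voom 3.58.1, robust fitting, a replicate block, a covariate for the mitochondrial mRNA share, and each library left out. Intervals of fold changes cover the spread between libraries, and the counting error is negligible beside it for most factors at this depth.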

Additional observations from a re-analysis of the deposited data

How the results depend on the processing

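The factors' median log2 fold change stayed between -0.03 and 0.05 in all 16 alternatives, within 1 SD of the spread between libraries. Leaving out 1 library at a time gave 0 to 10 factors higher and 0 to 6 lower, where the highest counts were those without Control 1, and 346 to 3751 of all genes higher and 318 to 3690 lower. It gave 0 to 3 CstF subunits higher. Other Integrator subunits had 0 to 8 higher and 0 to 3 lower, termination factors 0 to 5 and 0 to 3, U1 proteins 0 to 1 and 0 to 7, and poly(A) tail factors 0 to 2 and 0 to 5. Histone and cap partners had 0 to 5 higher. Scaling by library size alone, upper-quartile scaling, robust fitting and the replicate block each called 0 factors higher (Clp1 edgeR adjusted p = 0.0508, 0.0510, 0.0511 and 0.269). With no low-count filter the 1 factor called was Xrn2 (edgeR adjusted p = 0.0495), and Clp1 was not (edgeR adjusted p = 0.112). DESeq2 called 4 factors higher and 1678 of all genes higher and 1887 lower. The covariate for the mitochondrial mRNA share called 2 factors higher and 1 lower.

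For CstF, library size alone and the replicate block called 0 higher and robust fitting 1. For the other Integrator subunits DESeq2 called 3 higher. For histone and cap partners, relative log expression scaling, upper-quartile scaling, a minimum of 1 CPM in 3 libraries, DESeq2 and limma-voom called 2 higher, the covariate 3, and no filter or the block 0. For termination factors DESeq2 called 1 higher, and the covariate 1 higher and 1 lower. For U1 proteins DESeq2 called 1 higher and 2 lower, the covariate 1 higher, and no filter 1 lower.

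The replicate numbers of Control and 3A are not stated to mark a shared batch. Deviations of same-numbered libraries from their group means correlated at -0.66, -0.42 and -0.37 across genes, and no library correlated best with its own number. Deviations within a group of 3 depend on each other, so these values cannot show whether same-numbered libraries shared a batch. With the replicate number as a block, 142 of all genes were higher and 146 lower, 0 factors were called, and 0 Integrator subunits were higher and 0 lower.

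Signs changed in these fits. Under the covariate for the mitochondrial mRNA share, log2 fold changes were -0.14 for Cpsf1, 0.15 for Cpsf3, 0.036 for Cpsf4, 0.10 for Fip1l1, -0.11 for Wdr33, -0.027 for Cpsf6, 0.20 for Rbbp6, -0.13 for Papolg, 0.054 for Pabpn1, 0.036 for Scaf4, 0.0011 for Scaf8, 0.56 for Slbp, 0.21 for Lsm10 and -0.012 for Ints11. Of these, Slbp was called (edgeR adjusted p = 0.0483). By library size alone they were 0.064 for Scaf8, 0.012 for Slbp and 0.032 for Lsm11, and with no filter 0.025 for Scaf8. Leaving out 1 library at a time gave -0.042 (without Control 3) to 0.14 (without Control 1) for Wdr33, -0.019 (without Control 2) to 0.025 (without 3A 3) for Scaf8, -0.32 (without Control 1) to 0.10 (without Control 3) for Slbp, and -0.12 (without Control 2) to 0.030 (without Control 1) for Lsm11. Group differences under the covariate rest mainly on Control 1, whose mitochondrial mRNA share was close to that of 3A. The cause of these sign changes was not tested.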
